A study of Caenorhabditis elegans with 2 samples.

Results

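The heat shock chaperone genes of Caenorhabditis elegans and their regulator hsf-1 were examined for binding by the nuclear hormone receptor NHR-76. The set held 9 of the 19985 protein-coding genes of the annotation: hsp-1, hsp-3, hsp-4, hsp-6, hsp-60, hsp-70, hsp-90, hsp-110 and hsf-1. It was chosen as a list of names with results from these data already known, so the counts and ranks below describe it and carry no test. DNA recovered with the protein was sequenced (chromatin immunoprecipitation, ChIP-seq) from whole L4 larvae of strain OP203, males and females pooled, as 1 group of 2 biological replicates. The strain carries the mutation unc-119(ed3) and wgIs203, an inserted transgene for NHR-76 fused to enhanced green fluorescent protein. The sources used here do not name the promoter that drives the transgene. Whole animals were used, so binding in different cell types cannot be told apart, and no control experiment was analysed here.

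Chaperones bind unfolded proteins and help them fold. Hsp70 proteins do this in cycles of ATP hydrolysis helped by J-domain partners and by nucleotide exchange factors, Hsp90 acts on client proteins such as kinases and receptors, and Hsp60 forms a chamber inside mitochondria. HSF-1, the heat shock transcription factor, binds heat shock elements, which are repeats of the unit GAA and its complement TTC facing each other, and raises transcription of many chaperone genes under stress. NHR-76 belongs to a receptor family that binds hormone-response-like DNA sites.

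The deposited lists gave regions on the ce11 build, each with a signal value whose scale is not stated, so regions were ranked within each list, with rank 1 the strongest. The called list held 319 peaks, derived by the depositors from the pooled and replicate lists, the pooled list 13052 regions, replicate 1 26700 regions and replicate 2 24791 regions. The last 3 lists hold background regions as well as peaks. A region was given to a gene when its summit lay between 2000 bp upstream of the gene's 5′ end and its 3′ end. Read depth is unknown.

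Called peaks lay in the windows of hsp-1, hsp-60, hsp-90 and hsp-110, that is 4 of 9 genes, where 1.67% of all protein-coding genes had one. The other 5 genes, hsp-3, hsp-4, hsp-6, hsp-70 and hsf-1, had no called summit. Counting any overlap of a peak in place of its summit left the 4 genes (1.81% of all genes), as did a window from 1000 bp upstream (1.33%). A window from 500 bp upstream kept 3 (1.12%), as did the stronger 159 called peaks (0.751%), both without hsp-60. Because the genes were picked with such results known, nothing is read from the distance between these shares. The sequences under the 4 called summits are printed below, together with the window of hsp-3, the uncalled gene with the strongest region. Each is 200 bp around the summit, on the plus strand of WBcel235 (the ce11 assembly), read from the NCBI copy. Capitals mark heat shock elements of 2 or 3 units and the repeat GAGAGA on either strand.
hsp-1 (chrIV:17278503-17278702): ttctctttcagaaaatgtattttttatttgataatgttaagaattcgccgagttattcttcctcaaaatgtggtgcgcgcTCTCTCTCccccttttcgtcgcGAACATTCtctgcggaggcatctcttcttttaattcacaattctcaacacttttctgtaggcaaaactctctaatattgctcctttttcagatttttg
hsp-60 (chrIII:1619025-1619224): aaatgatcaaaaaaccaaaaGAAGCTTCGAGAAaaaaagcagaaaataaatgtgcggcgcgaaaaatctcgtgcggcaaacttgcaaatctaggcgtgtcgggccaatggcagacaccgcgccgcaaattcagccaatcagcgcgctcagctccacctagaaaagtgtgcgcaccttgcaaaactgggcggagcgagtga
hsp-90 (chrV:14685675-14685874): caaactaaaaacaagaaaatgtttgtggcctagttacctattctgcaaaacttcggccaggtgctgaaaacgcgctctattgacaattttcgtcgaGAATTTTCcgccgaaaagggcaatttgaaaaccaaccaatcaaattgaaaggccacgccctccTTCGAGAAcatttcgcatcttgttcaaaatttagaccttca
hsp-110 (chrIII:8447078-8447277): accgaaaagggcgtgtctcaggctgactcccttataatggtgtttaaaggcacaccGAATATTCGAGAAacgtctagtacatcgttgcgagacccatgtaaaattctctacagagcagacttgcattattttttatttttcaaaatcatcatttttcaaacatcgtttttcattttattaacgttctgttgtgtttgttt
hsp-3 (chrX:6092165-6092364): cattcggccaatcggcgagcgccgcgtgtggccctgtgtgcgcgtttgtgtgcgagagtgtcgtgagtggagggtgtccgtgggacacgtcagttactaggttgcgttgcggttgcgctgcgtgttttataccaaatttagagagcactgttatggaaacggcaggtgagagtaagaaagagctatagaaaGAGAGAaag

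Among the chaperones of the cytosol and nucleus, hsp-1 had the peak that ranked highest in the called list. It encodes the Hsp70 protein made under ordinary growth conditions. Its called peak (chromosome IV, 17278418 to 17278787) ranked 61 of 319, or 32 among the 288 nuclear peaks. In the replicates the region at this place ranked 51 in replicate 1 and 84 in replicate 2. The summits lay 382 and 355 bp upstream of the 5′ end, 27 bp apart. The peak was intergenic, and no other protein-coding gene had it in its window.

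A weaker region lay between this peak and the gene. Its summit was 182 bp upstream in replicate 1, at rank 675, and 153 bp upstream in the pooled list, at rank 4036. Replicate 2 listed none there. At the other end of hsp-1, replicate 2 had a region at rank 339 with its summit in the 3′ UTR, 2367 bp from the 5′ end. Replicate 1 had a summit 109 bp further on, at rank 487, and the pooled list one 104 bp further on, at rank 586. These last summits fell past the 3′ end of hsp-1 and so outside its window. The 3′ end of hsp-1 thus had a region of similar rank in each replicate, and none was called.

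The heat-inducible Hsp70 gene hsp-70 had far lower ranks, at summits closer to its 5′ end. It lies on chromosome I (9320325 to 9322519, minus strand) within the span of uggt-2, a gene on the opposite strand. Its strongest region ranked 10440 in replicate 1, with the summit 23 bp upstream, and 6856 in replicate 2, with the summit 76 bp upstream. In the pooled list it ranked 3319. So hsp-1 was placed in the strongest 0.483% of the pooled list and hsp-70 at 25.4%. The deposited −log10 q, which is higher for stronger evidence, was 2.98 at the pooled region of hsp-1 and 0.289 at that of hsp-70. The region of hsp-70 may thus belong to the background that the list also holds. The labels name no heat treatment.

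The gene for cytosolic Hsp90, hsp-90, had its called peak downstream of the annotated 5′ end. The peak (chromosome V, 14685590 to 14685959) ranked 94, and the regions in the replicates ranked 87 and 75, with summits 14 bp apart. The summit lay 857 bp into the gene, in the first intron of the longer of its 2 transcripts. The shorter transcript starts near the start codon, and the summit was 385 bp upstream of that start and 389 bp upstream of the start codon. The same summit was 290 bp upstream of C47E8.4, which is transcribed the other way and overlaps the first exon of hsp-90. With the window narrowed to the promoter, which ends 200 bp into the gene and starts 1000 bp before it, hsp-90 had no called summit, and the set had 3 (1.05% of all genes).

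The gene hsp-110 encodes a relative of Hsp70 that works as its nucleotide exchange factor. Its called peak (chromosome III, 8446993 to 8447362) ranked 128, with ranks of 148 in replicate 1 and 71 in replicate 2. The summits were 275 and 239 bp upstream of hsp-110, 36 bp apart. The peak lay between hsp-110 and rpn-3, a proteasome subunit gene transcribed the other way, and was 175 bp upstream of rpn-3. No further region of any list lay in the window of hsp-110.

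Of the pair of genes for BiP, the Hsp70 of the endoplasmic reticulum (ER), hsp-3 came closest to the called peaks. Its strongest region (chromosome X, 6092080 to 6092449) ranked 388 in replicate 1 and 512 in replicate 2, with summits 83 and 149 bp upstream. In the pooled list it ranked 397. Of the pooled regions above it, 108 were not called, and 36 regions with a called summit within 200 bp ranked below it. The region of hsp-3 thus stood among ranks where called and uncalled regions were mixed. For hsp-4, the BiP gene known to be induced by ER stress, the strongest region ranked 3452 in replicate 1 (57 bp upstream), 18224 in replicate 2 (349 bp upstream) and 6322 in the pooled list. The replicate summits of hsp-4 were at different places, so no shared region was listed. The deposited −log10 q of the pooled region was 2.98 at hsp-3 and 0.0981 at hsp-4.

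The mitochondrial chaperonin gene hsp-60 had a called peak (chromosome III, 1618940 to 1619309) at rank 171. The regions in the replicates ranked 115 and 231, with summits 3 bp apart. The summit was 617 bp upstream of hsp-60 and 196 bp upstream of Y22D7AL.10, which encodes the co-chaperonin partner of Hsp60 and is transcribed the other way. The peak was therefore nearer to Y22D7AL.10. For hsp-6, the mitochondrial Hsp70, the strongest region upstream ranked 1095 in replicate 1 and 1035 in replicate 2, with summits 371 and 519 bp upstream. These summits were 148 bp apart, and the pooled list held 1 region there, at rank 1137. In the 3′ UTR of hsp-6, replicate 1 listed regions at ranks 1163 and 20684, and replicate 2 listed 1 region, at rank 20349, beside the weaker of these.

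The regulator gene hsf-1 (chromosome I, 11953507 to 11963085, minus strand) is the longest of the set, with 9579 bp, and had no strong region. The strongest region in replicate 1 ranked 4918 and lay 1575 bp inside the gene, in an intron. In replicate 2 the strongest ranked 2757 and lay 1891 bp upstream, near the pooled region at rank 4240. Replicate 1 also had a region 171 bp from that summit of replicate 2, at rank 5635, just outside the window. Within the window, the replicates put the strongest region of hsf-1 at different places. The pooled region at rank 4240 had a deposited −log10 q of 0.195. The nearest called summit was 689189 bp away, at atp-1.

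**Figure D1:**
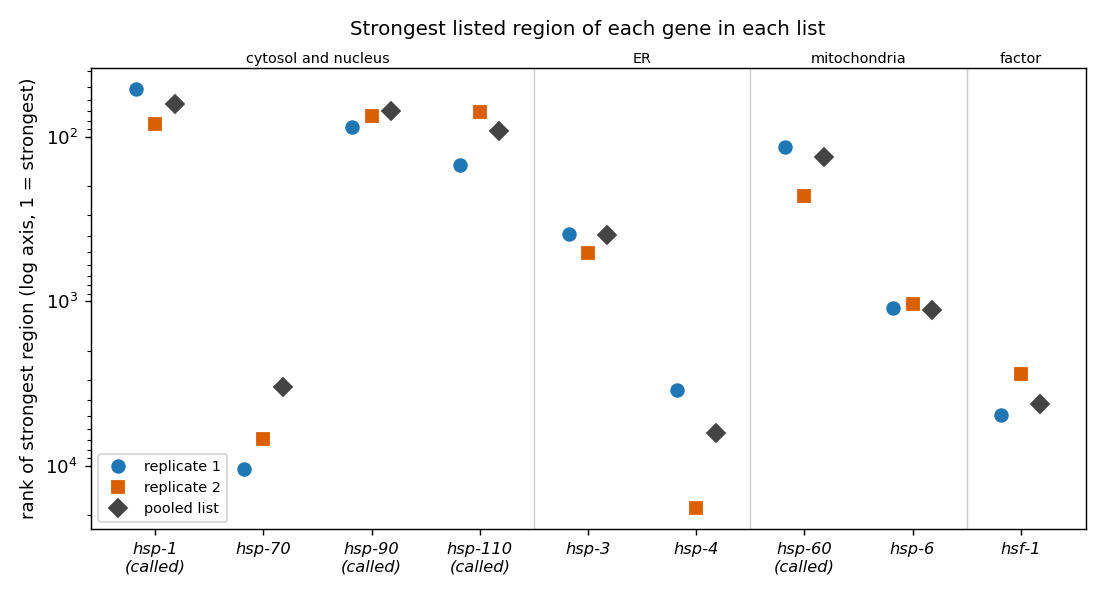
Rank of the strongest region in the window of each gene (log axis, strongest at the top) in replicate 1 (circles), replicate 2 (squares) and the pooled list (diamonds), 1 value per list, with genes grouped by where the protein works. The 4 called genes sit between ranks 51 and 231 in the replicates, and hsp-3 comes next at 388 and 512.

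**Figure D2:**
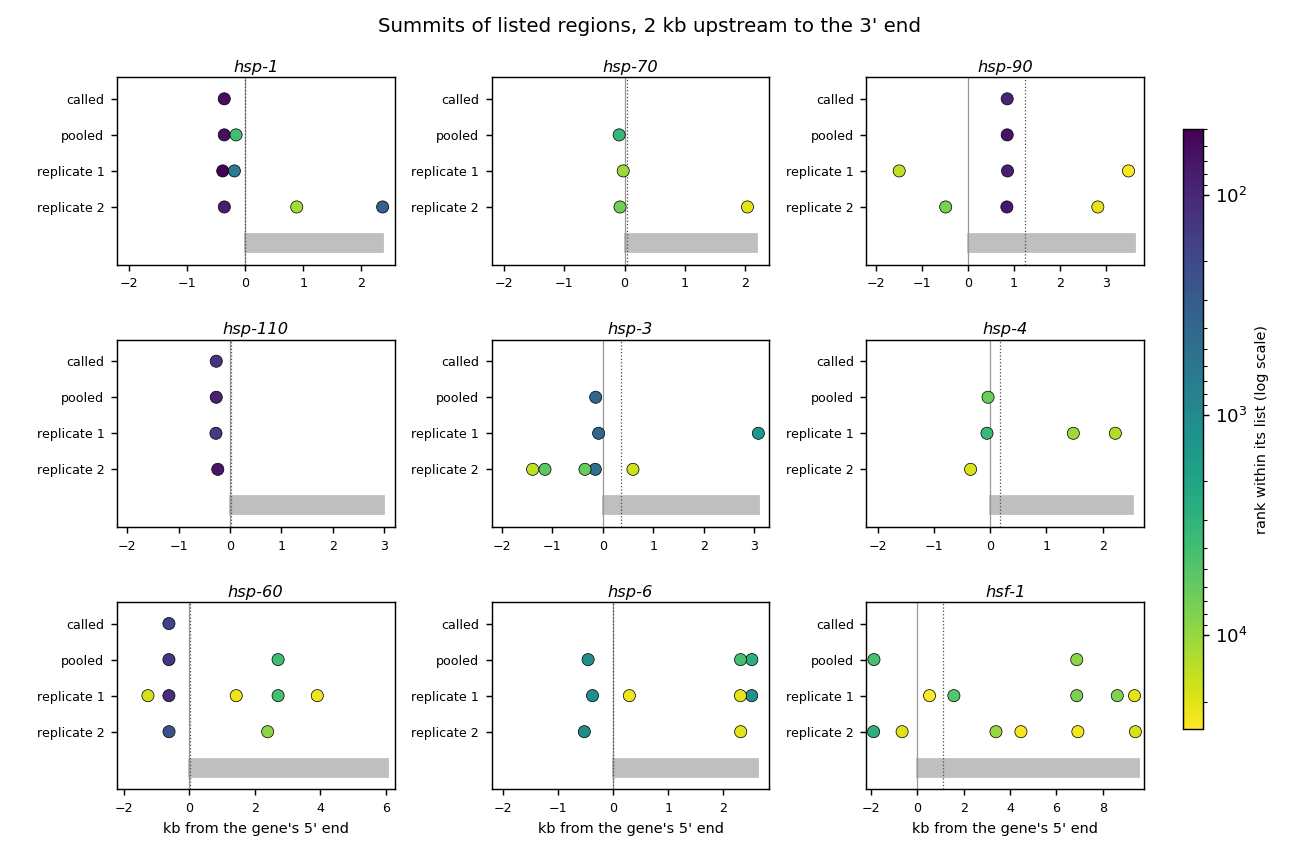
Position of every listed summit from 2 kb upstream of each gene to its 3′ end, in kb from the 5′ end, with 1 line per list and colour for the rank within that list (log scale). The grey bar is the gene and the dotted line its start codon; the called summits lie upstream of the 5′ end, except that of hsp-90, which lies between the 5′ end and the start codon.

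Every one of the 9 genes had at least 1 region in the pooled list, where 41.1% of all protein-coding genes did, and at least 1 in each replicate (63.5% of all genes in replicate 1 and 61.6% in replicate 2). The strongest pooled region lay upstream of the 5′ end in 8 of 9 genes, with hsp-90 as the exception. The matching share over all genes was not computed, so this count is not read as a trait of the set. Over the 9 genes the median rank of the strongest pooled region was 397, against 4989 over all genes with a pooled region. The windows of all genes differ in length, and longer ones can hold more regions. Per kb of window, the set had a median of 0.457 regions in replicate 1 and 0.477 in replicate 2, against 0.232 and 0.212 over all protein-coding genes. The genes were picked with results from these data known, so nothing is read from these contrasts in rank and density either.

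The replicates placed the 4 called genes alike. All 4 had a region within the top 319 of each replicate, as 1.68% of all protein-coding genes did in replicate 1, 1.74% in replicate 2 and 1.08% in both. Calling used the replicate lists themselves, so the replicate ranks of called genes are not independent of the call. The distance between the replicate summits was 3 bp at hsp-60, 14 bp at hsp-90, 27 bp at hsp-1 and 36 bp at hsp-110, against a median of 30 bp over the 286 nuclear called peaks listed in both replicates. The order of the 4 genes was not the same in the replicates. Replicate 1 ranked hsp-1 above hsp-90, hsp-60 and hsp-110, in that order, and replicate 2 ranked hsp-110 above hsp-90, hsp-1 and hsp-60. Both placed hsp-60 below hsp-1 and hsp-90, and the rest of the order within the 4 is not settled by these lists.

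**Figure D3:**
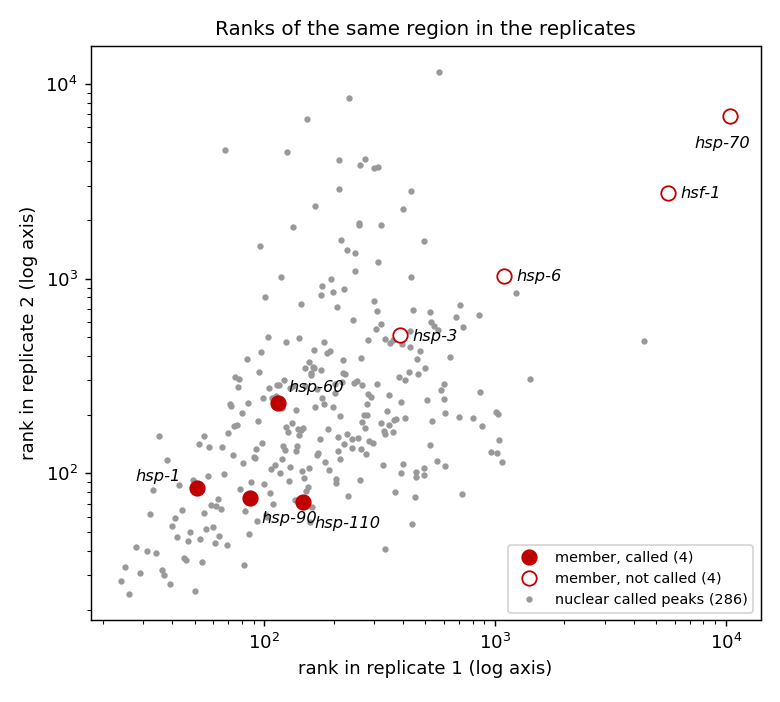
Rank of the same region in replicate 1 and replicate 2 (log axes), for the strongest pooled region of the called genes (filled circles) and of the uncalled ones (open circles, hsp-4 left out because replicate 2 lists no region within 200 bp), and for 286 nuclear called peaks (grey points). The 4 called genes and hsp-3 lie among the called peaks, while no plotted called peak ranks lower in both replicates than hsp-6, hsf-1 or hsp-70.

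By summed difference in the ranks of both replicates, the nuclear called peaks most like that of hsp-1 were those nearest to ZK1320.9 (ranks 49 and 92) and tasp-1 (43 and 87). For hsp-90 they were those nearest to nhr-3 (89 and 72) and T24D3.2 (83 and 64), for hsp-110 those nearest to egg-5 (136 and 73) and ekl-4 (152 and 81), and for hsp-60 those nearest to C34B4.2 (110 and 221) and nhr-88 (108 and 243). The likeness rests on 2 samples.

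In the sequences printed above, heat shock elements stood in the windows of all 4 called genes when 2 units were asked for, and in 2 of them when 3 were. The letters searched on both strands were GAANNTTC and TTCNNGAA for 2 units, and each of these lengthened by NNGAA or NNTTC, so that the units alternate, for 3 units, and each element of 3 units thus also holds 2 overlapping ones of 2 units. The window of hsp-110 held GAATATTCGAGAA, 38 bp from the summit, and that of hsp-60 held GAAGCTTCGAGAA, 74 bp from it. The window of hsp-1 held GAACATTC 5 bp from the summit, and that of hsp-90 held GAATTTTC 1 bp from it and TTCGAGAA 62 bp from it. Among the 288 nuclear called windows of 200 bp, 3.12% held an element of 3 units and 16.7% one of 2 units. Of the 200 bp before the 5′ ends of 19973 nuclear protein-coding genes, 1.24% held the longer and 21.9% the shorter one. A match describes the letters and does not show that HSF-1 or NHR-76 binds there.

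Elements of 3 units also stood away from the summits. In the 500 bp before the 5′ end, 5 of the 9 genes held one (hsp-1, hsp-6, hsp-70, hsp-90 and hsp-110), against 3.25% of all nuclear protein-coding genes. For hsp-1 it was GAATTTTCTAGAA on the gene's strand, 138 bp upstream of the gene and 218 bp from the called summit, on the side of the weaker region. For hsp-90 they were TTCTCGAATGTTC and TTCTCGAAAGTTC, 79 and 9 bp upstream of the 5′ end, and the nearer to the called summit was 866 bp from it. For hsp-110, GAAATTTCTAGAA lay 109 bp upstream, beside the one under the summit. For hsp-6, TTCGAGAAATTTC lay 301 bp upstream, 150 bp from the pooled summit. The element of hsp-70 was 23 bp from the summit of its pooled region, which ranked 3319. Among the 13022 nuclear pooled windows of 200 bp, background included, 1.88% held an element of 3 units. A link between elements and ranks was not tested.

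Of the other letters searched, the nuclear receptor elements AGGTCA and AAGTCA and the E-box CACGTG were in none of the 4 called windows. Over all nuclear called windows their shares were 6.94%, 10.8% and 16%. GAGAGA was in the window of hsp-1, as a pair of overlapping matches on the minus strand 16 and 18 bp from the summit, where 43.4% of nuclear called windows held it. GC content of the called windows was 37.5% at hsp-1, 50% at hsp-60, 41% at hsp-90 and 36% at hsp-110, against a median of 42% over the nuclear called windows.

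Other genes of protein folding and stress response were taken from lists of 80 names, of which 78 matched a protein-coding gene. A called summit lay in the window of 4 of the 78, dnj-9, bag-1, unc-23 and Y22D7AL.10, the last through the peak it shares with hsp-60. The share over all protein-coding genes was 1.67%. Of the 78 genes, 57 had a pooled region (41.1% of all protein-coding genes), with a median rank of 2209 for the strongest.

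Apart from Y22D7AL.10, the called genes were partners of Hsp70. The list itself is rich in such partners, with 29 of its 78 genes from the Hsp40 family, so nothing is read from this. Peaks were not called again with a replicate left out. Instead, the 319 strongest regions of the other replicate, from a list that also holds background, stood in for the called peaks. The genes with a summit then changed. Without replicate 1 they were dnj-9, Y22D7AL.10, hsp-43 and pdi-3 (1.74% of all protein-coding genes had one). Without replicate 2 they were dnj-9, bag-1, unc-23, Y22D7AL.10, dnj-14, pdi-3 and xbp-1 (1.68% of all protein-coding genes had one). The J-domain gene dnj-9 had a peak 215 bp upstream at rank 189, with ranks of 263 in replicate 1 and 134 in replicate 2, and was the only called gene among 29 of the Hsp40 family. The BAG-domain genes bag-1 and unc-23, whose products act on the nucleotide exchange of Hsp70, were called among 11 Hsp90 relatives and co-chaperones. These counts, 1 of 29 and 2 of 11, stand beside 1.67% of all protein-coding genes and are too small to read further. The peak of bag-1, 190 bp upstream, ranked 249 in the called list, 165 in replicate 1 and 348 in replicate 2. The peak of unc-23, 55 bp upstream, ranked 258 in the called list, 126 in replicate 1 and 4469 in replicate 2, so it ranked high in replicate 1 and not in replicate 2. The strongest of the uncalled genes in that group were the myosin chaperone gene unc-45 (pooled rank 2209) and enpl-1, the Hsp90 of the ER (3668). Among uncalled J-domain genes, the strongest pooled regions were those of dnj-13 (rank 323), dnj-20 (449) and dnj-14 (543).

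No gene of the other groups had a called summit, apart from Y22D7AL.10. Counting any overlap of a called peak added xbp-1. The small heat shock proteins, which bind unfolding proteins without ATP, had 0 called of 14. With 1.67% of all protein-coding genes called, a count of 0 in a group of this size sets it apart from no other genes. Of the 14, 8 had a pooled region, as did 41.1% of all protein-coding genes. The strongest were at hsp-25 (rank 825), sip-1 (990), hsp-43 (1019) and hsp-17 (5825). The heat-inducible hsp-16 genes had weak or no regions: hsp-16.2 ranked 8339 in the pooled list, and hsp-16.1, hsp-16.11, hsp-16.41, hsp-16.48 and hsp-16.49 had none there. Several hsp-16 genes are near-identical copies, and how reads that match more than 1 copy were treated is not known here.

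The other Hsp70 genes F44E5.4 and F44E5.5, a divergent pair, shared 1 pooled region at rank 457, 179 and 172 bp upstream of them, followed by stc-1 (918) and T14G8.3 (1690). Of 10 genes of ER folding and its stress sensors, pdi-3, a protein disulfide isomerase, had the strongest pooled region (rank 307). The strongest region of pdi-3 ranked 264 in replicate 1 and 263 in replicate 2. These replicate summits lay more than 200 bp apart, so they did not count as the same region. Each was within 200 bp of the pooled summit. After pdi-3 in the pooled list came the sensor kinase pek-1 (600), the transcription factor xbp-1 (738) and pdi-6 (791). In mitochondrial quality control the strongest after Y22D7AL.10 were ubl-5 (1266), dve-1 (3494) and clpp-1 (4074), which belong to the mitochondrial stress response. The genes for HSF-1 binding proteins, ddl-1, ddl-2 and hsb-1, ranked 2905, 7431 and 12154.

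**Figure D4:**
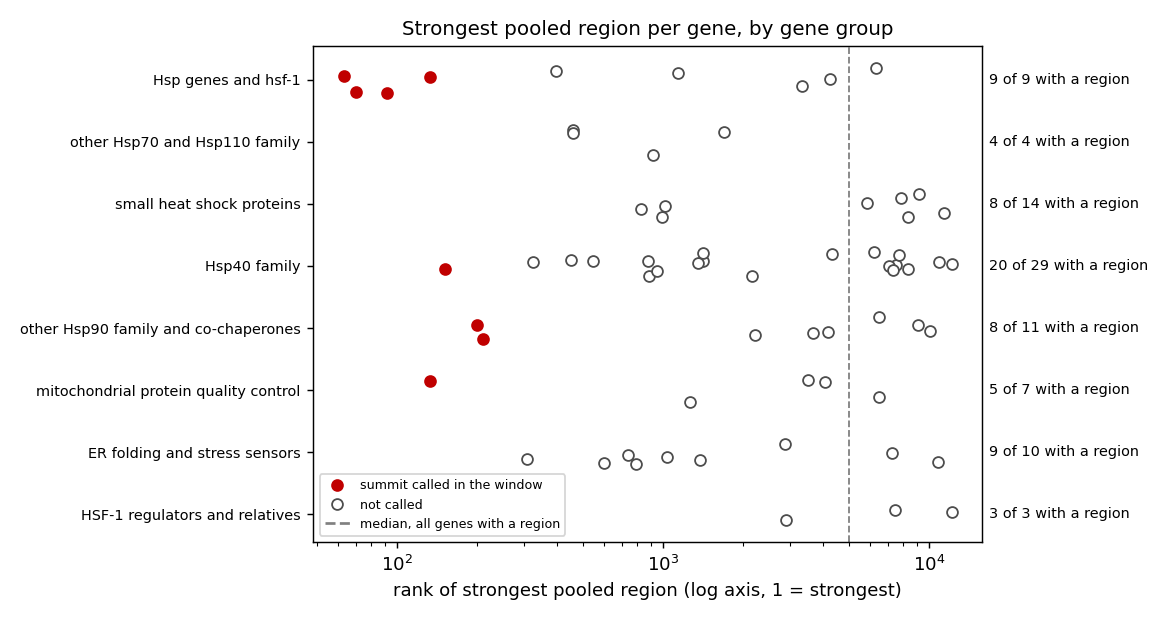
Rank of the strongest pooled region in each gene's window (log axis, strongest at the left) by gene group, with 1 point per gene, filled where a called summit lay in the window, and the median over all genes with a pooled region, 4989, as a dashed line. Vertical scatter within a group has no meaning. Called genes stand in the top row (4) and in the rows of the Hsp40 family, the co-chaperones and mitochondrial quality control.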

How the data were processed

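Binding of NHR-76 was analysed from 4 deposited lists of regions on the ce11 build: the called list, the pooled list and 1 list for each of 2 replicates. Per the texts deposited with the samples, the replicate and pooled lists hold peaks and background, and the called list was derived from them by the irreproducible discovery rate (IDR). The sources used here do not name the aligner, the caller or the thresholds. The deposited signal value is a score of unstated scale, and it was used for ranks inside 1 list at a time. All called peaks had a deposited −log10 q of 2.87, which could not order them. Depth is unknown.

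Genes came from Ensembl release 115 and sequence from the NCBI copy of WBcel235, and no region ran past a chromosome's end. Summits within 200 bp counted as the same region. Window and motif rules were checked on simulated data. No test was made, because members and lists were chosen with earlier results of these data known. Named genes were the members, genes sharing their peaks, the other listed genes with a called summit, the strongest 4 of each group, and the 2 peaks most like each called one in replicate ranks. The alternatives were other windows, overlap of regions in place of summits, the stronger 159 called peaks, each replicate left out, and mitochondrial regions left out of the ranking. Python 3.11.15 and pandas 2.3.3 were used.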

Additional observations from a re-analysis of the deposited data

How the results depend on the processing

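The 4 called genes hsp-1, hsp-60, hsp-90 and hsp-110 had a summit when either replicate was left out, that is when the 319 strongest regions of the other stood in for the called peaks (4 and 4 genes). Calling used these same replicate lists, so that outcome is not independent of the call. The 4 genes also stayed with a window from 1000 bp upstream or any overlap of the region. Counts of 3 came from a window from 500 bp upstream or the stronger 159 called peaks, which lose hsp-60, and from the promoter window, which loses hsp-90. Of the 78 other genes, 4 had a called summit, and 5 had any overlap with a called peak, xbp-1 being the gene added. With the stronger 159 called peaks the count was 0, by construction since the peaks of these 4 genes ranked below 159. With a replicate left out, the count of genes with a summit was 4 or 7. In both cases dnj-9, Y22D7AL.10 and the uncalled gene pdi-3 were counted, and bag-1 and unc-23 were lost without replicate 1. For pdi-3 the strongest summits of the replicates lay more than 200 bp apart. Elements of 3 units stood under 2 of the 4 called summits (3.12% of all nuclear called windows) and under 1 in windows of 100 bp (1.39%). Elements of 2 units stood under 4 in windows of 200 bp (16.7%). These shares include the windows of the 4 genes. Without mitochondrial regions, the median pooled rank of the 9 genes was 368 in place of 397. The pooled rank moved to 38 from 63 at hsp-1, to 44 from 70 at hsp-90, to 66 from 92 at hsp-110 and to 6292 from 6322 at hsp-4. Leaving out the mitochondrial regions shifts the rank numbers and cannot change the order among nuclear regions. No paired analysis was possible because the series has 1 group. Since depth is unknown, the lack of a called peak at hsp-3, hsp-4, hsp-6, hsp-70 and hsf-1 does not show that binding is absent.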

Other observations

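Of the 9 nuclear called windows of 200 bp that held a heat shock element of 3 units, 2 were those of hsp-60 and hsp-110. The other 7, listed after their letters were seen, had as nearest genes bag-1 (190 bp upstream, rank 249), ddp-1 (192 bp upstream, rank 157), R107.5 (257 bp upstream, rank 87), ZK1290.5 (320 bp upstream, rank 113), Y17G7B.17 (2566 bp upstream, rank 151), F45E1.4 (rank 173) and C30E1.4 (rank 303). The last 2 summits lay 4594 and 5864 bp downstream of the 5′ end of the gene named. The peak at ddp-1 also lay in the promoter window of ttc-7.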
